A study of Mus musculus with 8 samples.

Results

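The collagen genes are the genes of the mRNA table whose symbol is Col, a number, a and a number, as in Col1a1. By this rule 43 of the 22552 genes listed were members, and 20 of them passed the filter used here, a mean of at least 1 FPKM over both genotypes, as did 11597 genes in all. FPKM stands for fragments per kilobase of transcript, scaled to the mapped fragments of a library, a level per transcript length, so that levels of different genes can be set side by side. The tissue was brown adipose tissue of mice aged 2 months, of the strain mix 129SV::FVB/N::C57BL/6. The WT mice were mir-193b +/+ and the Null mice were mir-193b -/-, which also lack mir-365-1 by the title of the series. Per the labels' protocols dams with an MMTV-Cre transgene and a floxed miR-193b allele were bred to males with the floxed allele, and the transgene was then bred out. The labels describe 3 WT and 3 Null mRNA samples, but each genotype has 1 FPKM column, referred to as the WT pool and the Null pool. Every difference below is therefore a value with no replicate check and no test, and the depth of the libraries is unknown. The 2 microRNA samples, 1 WT and 1 Null, were sequenced separately.

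Collagens are secreted proteins of chains that wind around each other as a triple helix, and each chain is encoded by its own gene. Fibrillar collagens, among them types I, III and V, form the cable-like fibres of connective tissue. Type IV forms the sheet-like network of basement membranes, which in fat surrounds every adipocyte and blood vessel, and type VI forms beaded microfibrils close to cells and is abundant in adipose tissue. FACIT collagens sit on the surface of fibrils, and multiplexins (types XV and XVIII) bridge basement membranes to the tissue around them. In fat the fibrillar chains are made mainly by fibroblast-like stromal cells, and type IV by adipocytes and endothelial cells as well.

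Of the 4 collagens that differed by 1.5-fold or more between the pools, 3 were fibrillar chains. Col3a1, the chain of type III collagen, was at 61.6 FPKM in the WT pool and 137 FPKM in the Null pool, and Col1a2 was at 24.5 and 46.3 FPKM. Col27a1, a fibrillar chain best known from cartilage, went the other way with 21.3 FPKM in WT against 10.4 FPKM in Null. The main chains of the basement membrane, Col4a1 at 70.0 and 67.8 FPKM and Col4a2 at 50.9 and 40.4 FPKM, were lower in Null by less than 1.5-fold.

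Differences are given as log2((Null + 1)/(WT + 1)) of FPKM, a scale that understates the change of low genes, and a gene is counted as higher or lower when it differed by 1.5-fold or more on that scale. Of the 20 collagens past the filter 3 were higher in Null (15.0%), against a background of 7.87% of all genes past the filter, and 1 was lower (5%), against 6.75%. At 2-fold, 1 collagen was higher, against 2.17% of all genes, and 0 were lower, against 1.65%. These 2-fold counts depended on the setting, and no share of all genes at 2-fold is given for the other settings. With a pseudocount of 0.1 FPKM 2 were higher, Col3a1 (1.16) and Col4a5 (1.30), and Col27a1 (-1.03) was lower, and with the Null column scaled to the sum of the WT column 0 were higher, Col3a1 being at 0.93, and Col27a1 (-1.16) was lower. The median log2 ratio of the 20 was 0.08, against 0.01 over all genes past the filter, and 12 of them (60.0%) were above 0, against 50.6%. As a family the collagens thus lay near the background, and the members differed among themselves from -0.97 to 1.14. With the Null column scaled in this way, named equal column sums from here on, the median of all genes was -0.18, the shares of all genes higher and lower were 3.96% and 13.8%, and the collagen median was -0.03, which was 0.15 above that of all genes.

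**Figure D1:**
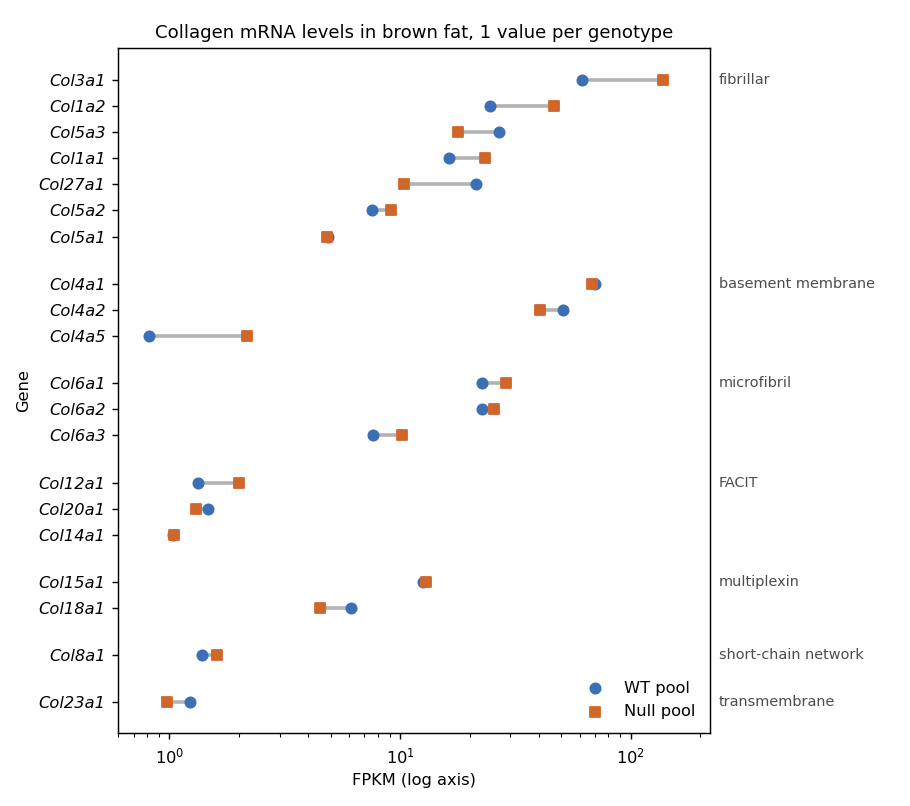
FPKM on a log axis of the 20 collagen genes past the filter, grouped by class, with a circle for the WT pool, a square for the Null pool and a line between them. The widest gaps are those of Col4a5, Col3a1, Col27a1 and Col1a2, while Col4a1, Col5a1, Col14a1 and Col15a1 have nearly the same value in both pools.

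The promoters of the 4 genes that differed by 1.5-fold or more are shown because these genes had the widest log2 ratios of the collagens past the filter. Each is the stretch of 250 bases before the start of the gene in RefSeq (GRCm38.p6), read towards the gene. Capitals mark matches, on either strand, to CCAAT (the CCAAT box), GGGCGG (the GC box bound by Sp1), TATAAA (the TATA box) and CAGAC (the letters of a SMAD-binding element).
Col3a1 (chr1:45311288-45311537, plus strand): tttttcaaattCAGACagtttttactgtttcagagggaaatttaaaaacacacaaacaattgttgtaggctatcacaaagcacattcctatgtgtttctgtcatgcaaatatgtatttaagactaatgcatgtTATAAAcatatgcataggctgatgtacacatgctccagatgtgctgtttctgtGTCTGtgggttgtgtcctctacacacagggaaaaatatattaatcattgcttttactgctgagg
Col1a2 (chr6:4505368-4505617, plus strand): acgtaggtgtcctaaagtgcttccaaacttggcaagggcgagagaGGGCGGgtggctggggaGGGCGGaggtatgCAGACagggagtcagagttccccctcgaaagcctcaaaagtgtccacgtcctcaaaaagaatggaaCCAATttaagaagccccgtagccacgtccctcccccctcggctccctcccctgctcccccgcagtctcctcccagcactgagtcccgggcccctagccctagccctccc
Col4a5 (chrX:141475169-141475418, plus strand): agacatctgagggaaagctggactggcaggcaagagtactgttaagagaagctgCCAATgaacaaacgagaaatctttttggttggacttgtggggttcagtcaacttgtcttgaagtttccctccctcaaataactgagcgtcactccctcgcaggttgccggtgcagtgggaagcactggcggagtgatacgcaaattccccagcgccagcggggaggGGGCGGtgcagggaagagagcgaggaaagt
Col27a1 (chr4:63215162-63215411, plus strand): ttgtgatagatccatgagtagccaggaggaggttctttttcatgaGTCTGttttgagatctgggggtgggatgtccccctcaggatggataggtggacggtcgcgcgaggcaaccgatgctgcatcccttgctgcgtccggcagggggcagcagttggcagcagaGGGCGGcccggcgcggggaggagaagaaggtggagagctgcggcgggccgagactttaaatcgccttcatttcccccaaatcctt
The windows differ in what they hold. That of Col3a1 has TATAAA 117 bases before the start and CAGAC 239 and 64 bases before it, with no match to the CCAAT or GC box, and a GC content of 35.2% against a median of 52.4% over all windows. That of Col1a2 has GC boxes 205 and 188 bases, a CAGAC 175 bases and a CCAAT box 109 bases before the start, with a GC content of 62.0%. Col4a5 has a CCAAT box at 196 and a GC box at 30 bases, and Col27a1 has a CAGAC at 205 and a GC box at 85 bases. No motif was shared by all 3 promoters of genes higher in Null. Over all 32851 windows of the same length in the table, 33.8% held CCAAT, 32.7% GGGCGG, 12.4% TATAAA and 42.2% CAGAC. Of 38 windows that belong to 35 collagen genes, 13 held CCAAT, 22 GGGCGG, 5 TATAAA and 17 CAGAC. A match describes the letters and not a binding site. The table holds no window for Col1a1, Col2a1, Col4a3, Col5a2, Col9a3, Col12a1, Col14a1 and Col22a1.

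Fibrillar collagens ranged in log2 ratio from -0.97 to 1.14. Type I collagen, the main protein of connective tissue fibres, is built from the products of Col1a1 and Col1a2, with more of the Col1a1 chain than of the Col1a2 chain in each molecule. Col1a1 was at 16.4 FPKM in WT against 23.3 FPKM in Null, a log2 ratio of 0.49, and Col1a2 had a log2 ratio of 0.89. The mRNA of Col1a1 was thus the less abundant of the 2, at 0.668 of the Col1a2 level in WT and 0.504 in Null, a comparison within each pool that multiplying a column by a constant does not change. Col3a1, whose product forms homotrimers in the fine fibres of soft tissue, had a log2 ratio of 1.14, the highest of all members with the pseudocount of 1 FPKM. Without a pseudocount it was 2.23-fold higher, less than Col4a5 at 2.64-fold. Its level was 3.77 times that of Col1a1 in WT and 5.89 times in Null. It ranked 1267 among the genes of the WT pool and 597 in the Null pool.

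Type V collagen is a minor fibrillar collagen that lies inside type I fibrils and limits their width. Col5a1 was at 4.87 FPKM in WT against 4.80 FPKM in Null (-0.02, and 0.02 with quantile normalization), and Col5a2 at 7.56 and 9.17 FPKM (0.25). Col5a3, the chain of a less widespread form of type V, was the most abundant of the 3 at 26.7 FPKM in WT against 17.8 FPKM in Null, a log2 ratio of -0.56. That is 1.50-fold lower without a pseudocount and just inside the 1.5-fold limit with it, and past the limit with equal column sums (-0.76). Col5a3 mRNA was 5.48 times as abundant as Col5a1 in WT and 3.70 times in Null. Col27a1, which encodes a fibrillar chain with a shorter helix, had a log2 ratio of -0.97 and was 2.05-fold lower without a pseudocount. So 2 of the 7 fibrillar chains past the filter were higher by 1.5-fold and 1 was lower, against 7.87% and 6.75% of all genes. Of the 7 chains 4 lay above 0, against 50.6% of all genes, and 3 below, and their median was 0.25. The chains of cartilage fibrils were nearly absent: Col2a1 was at 0.0234 and 0.0159 FPKM and Col11a1 at 0.0415 and 0.0201 FPKM. Col11a2 at 0.844 and 0.922 FPKM was the member just under the filter, and Col24a1 was at 0.0912 and 0.0462 FPKM.

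**Figure D2:**
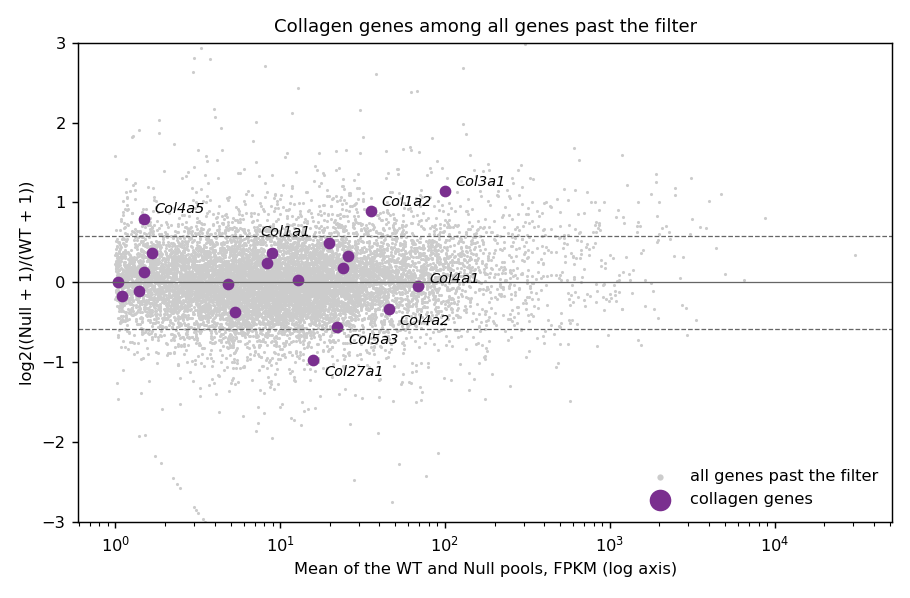
The log2 ratio of Null to WT (pseudocount 1 FPKM) against the mean of both pools in FPKM (log axis), for collagens in purple and all genes past the filter in grey, with dashed lines at 1.5-fold; 66 genes lie beyond the vertical range. Col3a1, Col1a2 and Col4a5 lie above the upper line, Col27a1 lies below the lower one, and the other 16 lie between them.

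Among basement membrane collagens Col4a1 and Col4a2 were abundant and differed by less than 1.5-fold, while Col4a5 was low and differed more. Col4a1 was the most abundant collagen in WT, and Col3a1 the most abundant in Null. Col4a1 and Col4a2, which form the common type IV molecule with more of the Col4a1 chain, are head-to-head neighbours on opposite strands. The starts of the 2 genes lie 21 bases apart in RefSeq, such that their first bases overlap. Their log2 ratios were -0.05 and -0.33, and Col4a1 mRNA was 1.38 times as abundant as Col4a2 in WT and 1.68 times in Null. Col4a5, a chain of the type IV form best known from the kidney, was at 0.818 FPKM in WT against 2.16 FPKM in Null, a log2 ratio of 0.80 at a low level. Its divergent neighbour Col4a6, whose start lies 1343 bases away, was at 0.0194 and 0.0211 FPKM. The usual partners of the Col4a5 chain stayed below the filter, Col4a3 at 0.218 and 0.418 FPKM and Col4a4 at 0.161 and 0.181 FPKM. Of the 3 members of this class past the filter, only Col4a5 was higher by 1.5-fold, against 7.87% of all genes.

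Type VI collagen assembles from its chains in equal parts. Col6a1 was at 22.6 FPKM in WT against 28.8 FPKM in Null (0.33), Col6a2 at 22.6 and 25.6 FPKM (0.17, and -0.03 with equal column sums), and Col6a3, whose cleaved end is the adipose-derived peptide endotrophin, at 7.62 and 10.2 FPKM (0.37). All 3 were higher in Null by less than 1.5-fold as deposited. The mRNA levels of Col6a1 and Col6a2 were close to equal, with ratios of 1.00 in WT and 1.12 in Null, and Col6a1 was 2.97 times as abundant as Col6a3 in WT and 2.83 times in Null. Col6a4, Col6a5 and Col6a6 did not pass the filter, with Col6a6 the highest of them at 0.188 and 0.257 FPKM.

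**Figure D3:**
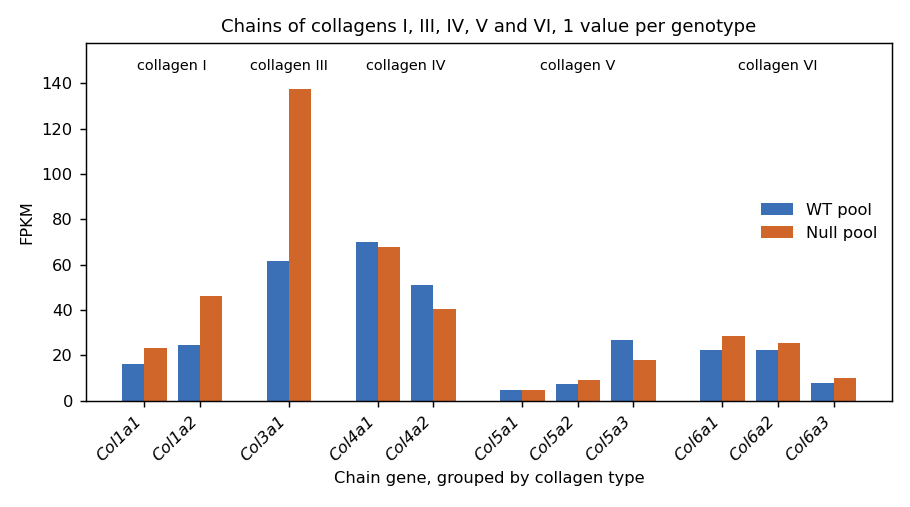
Bars give the FPKM of each chain of collagens I, III, IV, V and VI in the WT pool and the Null pool, 1 value each and so without error bars. Col3a1 is the tallest bar at 137 FPKM in Null, Col4a1 the tallest in WT at 70.0 FPKM, and Col5a3 stands above the other chains of type V in both pools.

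Collagens on and between the main networks were low, with exceptions. Col15a1, a multiplexin of basement membranes in muscle and fat, was at 12.6 FPKM in WT against 12.9 FPKM in Null (0.03, and -0.17 with equal column sums). Its relative Col18a1, the source of the fragment endostatin, was at 6.12 and 4.51 FPKM (-0.37). Among FACIT collagens Col12a1 was at 1.33 and 2.00 FPKM (0.37), Col20a1 at 1.47 and 1.30 FPKM (-0.10) and Col14a1, the member just above the filter, at 1.04 FPKM in both pools (0.00). Col12a1 and Col14a1 bind fibrils of type I collagen. Col8a1, a short-chain collagen of vessel walls, was at 1.39 and 1.61 FPKM (0.13, and close to 0 with equal column sums). Col23a1, a transmembrane collagen, was at 1.22 and 0.976 FPKM (-0.17). None of these 7 differed by 1.5-fold on the scale used, while Col12a1 was 1.51-fold higher without a pseudocount.

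The 23 members that did not pass the filter lay between 0 and 0.922 FPKM, with log2 ratios from -0.28 to 0.26, 11 above 0 and 11 below. Col25a1 was listed at 0 in both pools and Col22a1 at 0.0289 FPKM in WT and 0 in Null. Col7a1, which anchors skin epithelium, was at 0.574 and 0.296 FPKM, and Col17a1, a hemidesmosome collagen, at 0.0208 and 0.0345 FPKM. Col10a1, a marker of growth plate cartilage, was at 0.167 and 0.0850 FPKM.

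Summed over all 43 members, collagen mRNA was at 367 FPKM in WT against 453 FPKM in Null, which was 0.0721% and 0.0767% of the sums of the 2 columns. The sums had a log2 ratio of 0.30. One gene made most of that difference: without Col3a1 the sums were 305 and 315 FPKM, a log2 ratio of 0.05. The share of Col3a1 in all collagen mRNA was 16.8% in WT and 30.4% in Null, while that of Col4a1 was 19.1% and 15.0% and that of Col5a3 7.28% and 3.93%. By class, fibrillar chains summed to 164 FPKM in WT against 250 FPKM in Null, basement membrane chains to 122 and 111 FPKM, and microfibril chains to 53.0 and 64.8 FPKM.

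Collagen genes that lie next to each other among protein-coding genes (RefSeq, GRCm38.p6) did not have equal ratios. On chromosome 1 Col3a1 lies beside Col5a2, and their log2 ratios were 1.14 and 0.25. The neighbours Col4a1 and Col4a2 on chromosome 8 had -0.05 and -0.33, and Col6a2 and Col6a1 on chromosome 10 had 0.17 and 0.33. Col4a5 on chromosome X had 0.80. Its neighbour Col4a6, at 0.0194 and 0.0211 FPKM, did not pass the filter, and at that level the pseudocount holds the ratio near 0. Col1a1 and Col1a2, whose products share a molecule, lie on different chromosomes.

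The deposited mRNA table opens with 727 genes in falling order of the Null to WT ratio, 331 higher and 396 lower in Null by at least 1.63-fold, and lists the others alphabetically apart from 10 places. What placed a gene in that opening set is not given in the sources used here. Of the 20 collagens past the filter 4 (20%) stood in it, against 6.25% of all genes past the filter. They were the same 4 that differed by 1.5-fold: Col4a5, Col3a1, Col1a2 and Col27a1. Every gene of the opening set was at least 1.63-fold apart without a pseudocount. The share of collagens in it therefore depends on the ratios given above and is not independent of them. Whether the ratio alone placed a gene in that set is not known.

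MicroRNAs of the miR-29 family are known to pair with the mRNAs of many collagens, Col1a1, Col1a2 and Col3a1 among them, and to lower their levels. The family is shown because its 3 mature forms share 1 seed (bases 2 to 8, in capitals), from RefSeq (GRCm38.p6).
miR-29a-3p: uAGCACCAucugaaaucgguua
miR-29b-3p: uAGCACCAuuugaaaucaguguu
miR-29c-3p: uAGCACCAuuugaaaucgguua
The authors' unit is RPM, reads scaled to a total. miR-29a-3p was at 8947 RPM in the WT library and 10370 RPM in the Null library, a log2 ratio of 0.21, 0.04 above the median of 0.17 over the 323 microRNAs whose mean reached 10 RPM. miR-29c-3p was at 1574 and 1628 RPM (0.05) and miR-29b-3p at 367 and 365 RPM (-0.01), 0.12 and 0.18 below that median. The 3 summed to 10887 RPM in WT and 12363 RPM in Null. None of them differed by 1.5-fold, against 8.05% of microRNAs that were higher and 6.19% that were lower, and the authors' deposited table gives each an adjusted p of 1 in a test of 1 library against 1. With 1 library per genotype, no spread between mice can be given.

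The mRNAs of proteins that modify and fold collagen chains differed by less than 1.5-fold in all 15 cases past the filter. Of all genes past the filter 7.87% were higher and 6.75% lower by that fold. The median log2 ratio of the 15 was 0.10. Serpinh1, the collagen chaperone Hsp47 and the most abundant of them, was at 164 FPKM in WT against 181 FPKM in Null (0.14, but -0.03 with quantile normalization and -0.08 with equal column sums), and Ppib, a prolyl isomerase, had the highest ratio at 101 and 149 FPKM (0.55). P4ha2, a catalytic subunit of prolyl 4-hydroxylase, was lowest at 4.05 and 3.38 FPKM (-0.21). With equal column sums the median of the list was -0.08, which was 0.10 above that of all genes. Mia3, which helps load procollagen into transport vesicles, was listed at 0 in both pools, which can be a failed estimate.

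The shares of all genes past the filter were again 7.87% higher and 6.75% lower by 1.5-fold, with 50.6% above 0. With equal column sums 3.96% were higher and 13.8% lower. Among 4 genes past the filter that remove the propeptides of procollagen, 1 was higher by 1.5-fold. That was Pcolce, which enhances cleavage of the C-terminal propeptide, at 21.4 and 33.6 FPKM (0.62). It was not past 1.5-fold with equal column sums (0.42). Its relative Pcolce2 was at 4.66 and 3.67 FPKM (-0.28). All 5 cross-linking genes past the filter lay below 0, by less than 1.5-fold, from Pxdn at 21.6 and 20.8 FPKM (-0.05), the peroxidase that links type IV collagen, to transglutaminase Tgm2 at 72.8 and 55.6 FPKM (-0.38). Tgm2 was past 1.5-fold (-0.59) with equal column sums, where the median of the list moved from -0.15 to -0.33. Of 10 genes of collagen breakdown and its inhibitors 9 lay above 0 (7 of 10 with equal column sums), and 1 was higher by 1.5-fold, the protease Mmp3 at 1.97 and 3.63 FPKM (0.64). Mmp3 was not past 1.5-fold with equal column sums (0.47), and with quantile normalization the protease Ctsk (0.60) was, from 0.57 as deposited. Timp4, a metalloprotease inhibitor and the most abundant of them, was at 68.9 and 96.3 FPKM (0.48), and Timp2 was lowest at 17.7 and 15.7 FPKM (-0.16). Of 4 collagen receptors past the filter, Itgb1, the shared beta chain of collagen-binding integrins, was at 77.5 and 77.9 FPKM (0.01, and below 0 with either other scaling), and the collagen receptor kinase Ddr1 was lower by 1.5-fold at 4.40 and 2.13 FPKM (-0.79).

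Partners of fibrils and of basement membranes are given next, with no test between the lists. Of all genes past the filter 7.87% were higher and 6.75% lower by 1.5-fold, and 50.6% lay above 0. With equal column sums 3.96% were higher and 13.8% lower. Of 7 small leucine-rich proteoglycans past the filter, which bind collagen fibrils, 2 were higher and 1 was lower by 1.5-fold, with a median of 0.31, while their summed level was 340 FPKM in WT and 332 FPKM in Null. Aspn, which encodes asporin, was at 14.5 FPKM in WT against 26.0 FPKM in Null (0.80), Lum, which encodes lumican, at 17.5 and 28.9 FPKM (0.69) and Dcn, which encodes decorin, at 121 and 162 FPKM (0.41). Prelp, which links basement membranes to the matrix, was lower at 138 and 59.5 FPKM (-1.20), the widest difference of the list. Under equal column sums Aspn (0.59) stayed just past 1.5-fold, Lum (0.48) did not, and the median was 0.12. Of 11 other basement membrane proteins past the filter 9 lay below 0, none by 1.5-fold, with a median of -0.28 and sums of 186 and 151 FPKM. With equal column sums all 11 lay below 0, the laminin chains Lamb1 (-0.67) and Lamc1 (-0.64) were past 1.5-fold, and the median was -0.43. The laminin chain Lamb1 was the most abundant and the lowest at 33.0 and 23.6 FPKM (-0.47), and agrin, Agrn, was highest at 12.2 and 12.7 FPKM (0.05).

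The 16 other matrix glycoproteins past the filter had a median of 0.13 (-0.04 with equal column sums). Of these 1 was higher by 1.5-fold, against 7.87% of all genes, tenascin C (Tnc) at 0.913 and 2.34 FPKM (0.80). Sparc, which binds collagen IV and was the most abundant, was at 488 and 532 FPKM (0.12, but -0.08 with quantile normalization and -0.09 with equal column sums), and fibronectin (Fn1) was lowest at 5.13 and 3.50 FPKM (-0.45, and past 1.5-fold at -0.61 with equal column sums). With a pseudocount of 0.1 FPKM versican (Vcan) was also higher by 1.5-fold (0.66, from 0.38). TGF-beta is a well-known inducer of fibrillar collagen genes. Of 13 genes past the filter of its ligands, receptors and response 0 differed by 1.5-fold, against 7.87% of all genes higher and 6.75% lower. Of the 13 genes 10 lay below 0, while 50.6% of all genes lay above 0, and the median was -0.16. The receptor Tgfbr2 was at 67.3 and 60.0 FPKM (-0.16), the co-receptor Tgfbr3 highest at 12.0 and 16.7 FPKM (0.45), and Smad2, a transducer of the signal, lowest at 16.6 and 11.5 FPKM (-0.49). With equal column sums Smad2 (-0.69) and Smad3 (-0.64) were lower by 1.5-fold, against 13.8% of all genes. With a pseudocount of 0.1 FPKM Ctgf (-0.59) was lower, against 9.15% of all genes.

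**Figure D4:**
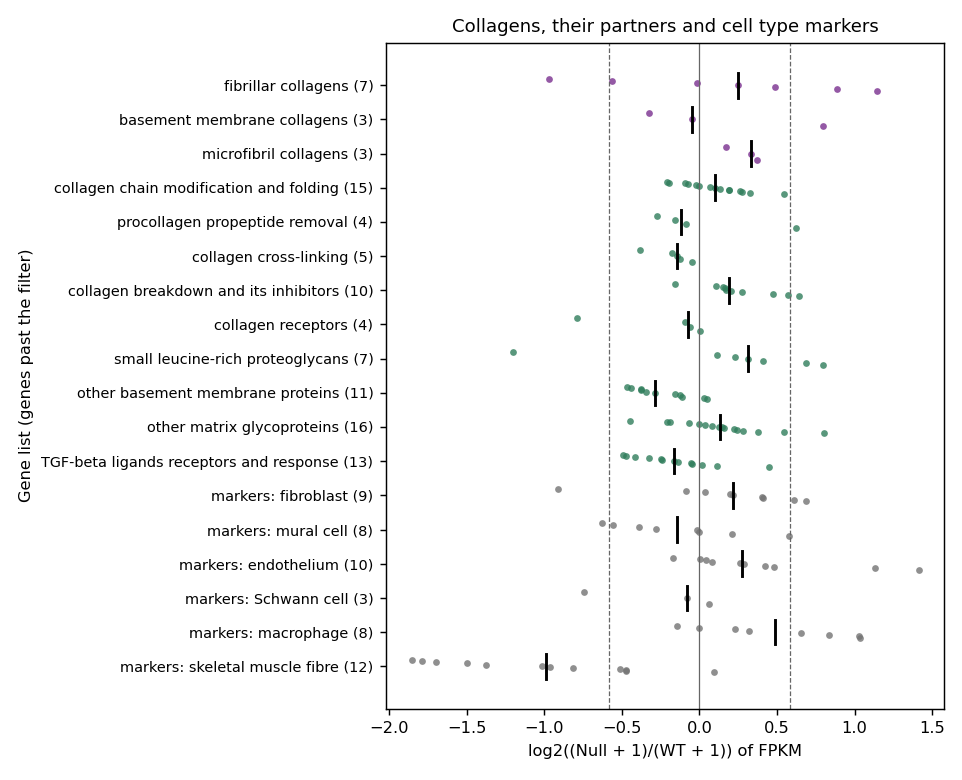
Log2 ratio of Null to WT (pseudocount 1 FPKM) of each gene past the filter, by list, with the number of genes in brackets, a black bar at the list's median and dashed lines at 1.5-fold. Fibrillar chains spread from -0.97 to 1.14, other basement membrane proteins lie mostly below 0, and muscle fibre markers have a median of -0.99.

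Markers of the cells that make collagen, and of other cells in the tissue, also differed between the pools, and in bulk tissue fewer cells of a type and less RNA per cell cannot be told apart. The marker counts stand against these shares of all genes past the filter. As deposited 7.87% were higher and 6.75% lower by 1.5-fold, and 50.6% lay above 0. With equal column sums the shares at 1.5-fold were 3.96% and 13.8%, and with a pseudocount of 0.1 FPKM 10.3% and 9.15%. All 10 brown adipocyte markers were past the filter and went both ways, with sums of 41210 and 53392 FPKM. Adipoq (0.71) and Cox8b (0.80) were higher by 1.5-fold and Elovl3 (-2.27) and Dio2 (-0.97) lower, while Fabp4, the most abundant, was at 0.35 and Ucp1, the uncoupling protein, stood at 3016 FPKM in WT against 2487 FPKM in Null (-0.28). Plin1 (-0.76) was lower too with equal column sums, and Adipoq (0.49) was then not past 1.5-fold. With quantile normalization 0 were higher and 4 lower, Ucp1 (-0.80) among them, against 7.28% and 6.99% of all genes. Of 9 fibroblast markers past the filter 2 were higher and 1 lower by 1.5-fold. All 10 listed summed to 282 FPKM in WT against 346 FPKM in Null, with Dcn the most abundant, Lum highest and Pi16 lowest (-0.91). Dcn and Lum are also in the proteoglycan list above and Mfap5 in that of other matrix glycoproteins, so these lists are not independent. With equal column sums 0 fibroblast markers were higher, Lum being at 0.48 and Thy1 at 0.43, and Pi16 stayed lower. All 10 endothelial markers passed, with sums of 342 and 496 FPKM. By 2-fold 2 were higher, Cldn5 (1.42) and Egfl7 (1.13), against 2.17% of all genes past the filter. The others differed by less than 1.5-fold, from Kdr (-0.17), Cdh5 (0.01) and Pecam1 (0.04) up to Emcn (0.48). As deposited 9 of the 10 lay above 0, against 7 with quantile normalization and 6 with equal column sums. Egfl7 was under 2-fold with equal column sums (0.92). Of 8 macrophage markers 4 were higher as deposited, against 7.87% of all genes, with sums of 48.8 and 83.4 FPKM and Aif1 (1.04) highest. The other 4 were Mrc1 (0.32), Emr1 (0.23), Csf1r (-0.01, and 0.04 with quantile normalization) and Cd163 (-0.15). With equal column sums 3 macrophage markers were higher, against 3.96% of all genes. Of 8 mural cell markers 1 was lower, Notch3 (-0.63), with sums of 151 and 150 FPKM, and Cspg4 was lower too with equal column sums (-0.75) and with a pseudocount of 0.1 FPKM (-0.60), where Tagln (0.61) was higher. Of 3 Schwann cell markers past the filter 1 was lower, Mbp (-0.75), with sums of 29.6 and 19.2 FPKM over the 6 used here. Muscle fibre markers were lower by 1.5-fold in 8 of 12 cases, against 6.75% of all genes, with sums of 3108 and 2169 FPKM. With quantile normalization and with equal column sums 11 of 12 were lower, against 6.99% and 13.8% of all genes. As deposited Mylpf, at 481 and 513 FPKM (0.09), was the 1 muscle marker above 0. The part of any of these cells in the collagen values was not tested. All 7 cartilage markers were at or below 0.388 FPKM, Matn1 and Matn3 listed at 0 in both pools, and all 7 epithelial markers at or below 0.404 FPKM, with Krt14 listed at 0 in both.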

How the data were processed

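mRNA-seq of brown adipose tissue was deposited by the authors as FPKM in a single column for each genotype, per the file headers. The way in which the 3 libraries of a genotype were combined, the gene annotation and the settings are not stated in the labels or headers. The submitters' processing notes name CASAVA, TopHat, BWA, edgeR, DESeq and the build mm9. Poly(A) libraries were made with a TruSeq kit, per the labels' protocols. Values of 0 can be failed estimates: 5796 genes were at 0 in WT and 6016 in Null. The columns sum to 508701 and 590327 FPKM. The microRNA values are a signal headed RPM that the authors deposited for 1 library per genotype; the 386 listed sum to 1559381 and 1578515, more than the name implies, so their scaling total is not known and no counting interval is given. The ratio and p-value of each microRNA come from the authors' deposited table.

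From these values log2((Null + 1)/(WT + 1)) was computed with Python 3.11.15 and pandas 2.3.3, with a filter of a mean of at least 1 FPKM (10 RPM for microRNAs), and checked on simulated data. No test between genotypes was possible on 1 column each. Of 236 list entries 235 were in the table; 2 further genes are not reported here. The collagens, the 26 lists and the comparisons were chosen with earlier results of these data known. Named genes are every collagen with a mean of at least 1 FPKM and, of each other list, the most abundant gene, those with the highest and lowest ratio, and genes 2-fold or more apart, at most 6; brown fat, macrophage and muscle markers are given in short. Collagens under the filter, Mia3, Krt14, the Matn genes and list genes whose 1.5-fold call changed with the setting were named after their values were seen. Alternatives were a pseudocount of 0.1 FPKM, no filter, a mean of at least 5 FPKM, quantile normalization and scaling of the Null column to the WT sum. Overlapping and antisense genes cannot be told apart without a statement on strand.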

Additional observations from a re-analysis of the deposited data

How the results depend on the processing

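The median log2 ratio of the collagens, 0.08 as reported, was 0.11 with a pseudocount of 0.1 FPKM, 0.0024 with no filter (43 genes), 0.17 with a minimum mean of 5 FPKM (13 genes), -0.032 with the Null column scaled to the WT sum and 0.029 without the fibrillar chains. Without the 4 genes of the opening set of the table, chosen after seeing the data, it was 0.015. The count of collagens lower by 1.5-fold, 1 as reported, was 2 with a pseudocount of 0.1 FPKM and 2 with the column sums equal, Col5a3 being the addition. The share of all genes lower was 6.75% as reported, 9.15% with that pseudocount and 13.8% with equal column sums. The count higher stayed at 3 in both settings, against 10.3% and 3.96% of all genes. At 2-fold the counts of 1 higher and 0 lower became 2 and 1 with the pseudocount of 0.1 FPKM and 0 and 1 with equal column sums. No share of all genes at 2-fold is given for these settings. The log2 ratio of summed collagen FPKM, 0.30, was 0.24 with quantile normalization, 0.088 with equal column sums, 0.046 without Col3a1 and 0.37 without Col4a1, the last chosen after seeing the data. Apart from the members left out, the cause was not tested. Col3a1, Col1a2, Col4a5 and Col27a1 kept their direction and stayed past 1.5-fold in each setting in which they passed the filter; Col4a5 did not pass at 5 FPKM. Against the main values, 3 collagens had another sign with equal column sums (Col15a1, Col6a2 and Col8a1) and 2 with quantile normalization (Col5a1 and Col14a1). No paired analysis was possible because the mRNA table has 1 column per genotype, so no replicate could be left out either. The planned comparison by protein length was not run, since no protein table was used here. No depth is known for the mRNA libraries, which limits what can be said of members under 1 FPKM.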

Other observations

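Collagen-like stretches also occur in proteins outside the collagen gene names. In a list of 23 such genes drawn up after seeing the data, 14 passed the filter, with a median log2 ratio of 0.14. Of the 14 genes 2 were higher and 2 lower by 1.5-fold, against 7.87% and 6.75% of all genes past the filter. The adipocyte hormone Adipoq was at 1163 FPKM in WT against 1899 FPKM in Null (0.71), more than any collagen. C1qtnf2, a relative of adiponectin, was at 1.40 and 2.65 FPKM (0.60). The complement chains C1qa, C1qb and C1qc, made by macrophages, were at 24.7 and 32.9, 23.2 and 30.7, and 20.8 and 24.0 FPKM. Gldn, which encodes gliomedin, a protein of the nodes of myelinated nerve, was lower at 7.66 and 2.76 FPKM (-1.20), and Fcna, a ficolin, at 2.49 and 1.30 FPKM (-0.60). Emid2, another symbol of Col26a1 and so outside the rule, was at 0.0233 and 0.0269 FPKM.

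Ribosomal protein genes, matched by symbol, had a median log2 ratio of 0.88 over 66 genes, 61 of them above 0, so that the 1.14 of Col3a1 and the 0.89 of Col1a2 lay above and close to the median of that family.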
